A study of Mus musculus with 23 samples.

Results

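Rab GTPases and sorting nexins, the gene families that direct membrane traffic between the plasma membrane, endosomes, Golgi and lysosomes, were followed in injured mouse spinal cord. Members were taken by name, as genes listed under a symbol made of Rab or Snx and a number. They were chosen with earlier results of these data known. Of 9480 genes listed in either fraction, 63 were members, 41 Rab genes and 22 sorting nexins. All 63 were among the 9363 genes of the precipitated fraction, and 42 of them (27 Rab, 15 Snx) were among the 4898 genes of the flow-through. GENCODE release M21 annotates 89 protein-coding genes with such names. The other 26, among them Rab1a, Rab3a and Snx17, were not analysed here.

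The RNA came from young adult mGFAP-Cre-RiboTag mice with the genotype label wild type. In these mice Cre recombinase under a mouse Gfap promoter puts a hemagglutinin (HA) tag on ribosomes, so that tagged ribosomes with their mRNA can be precipitated. Cells in which Cre has acted keep the tag, whatever they later become. Every mouse received a severe crush injury of the cord (SCI, spinal cord injury) at thoracic level 10, and RNA was taken from the central 3 mm of the lesion 14 days after the crush. The precipitated RNA is called HA and the RNA left over is called FT (flow-through). The study assigns HA to astrocytes and FT to other cells. Each fraction had 3 treatments, a hydrogel depot with growth factors injected 2 days after injury, a hydrogel CT depot at the same time, and SCI only. The HA groups held 3, 3 and 4 libraries in that order, and the FT groups held 5, 4 and 4. The labels do not explain CT. The series title names the factors as FGF and EGF, whereas the column headers call the same group BDNF and NT3, and this difference was not resolved here. No source says that the title numbers are separate animals, so p-values measure the spread between libraries.

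A Rab protein is a molecular switch: bound to GTP it sits on a membrane and recruits effectors that tether, move or fuse vesicles, and bound to GDP it is drawn off the membrane by GDP dissociation inhibitors. Exchange factors (GEFs) switch Rabs on and GTPase-activating proteins (GAPs) switch them off. Sorting nexins bind phosphoinositides of endosomes through a PX domain, and those with a curvature-sensing BAR domain (SNX-BAR) shape tubules that carry cargo back to the Golgi or the cell surface. In astrocytes this traffic is known to place transporters, channels and adhesion receptors at the membrane, and in neurons it serves synaptic vesicles and axonal transport.

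Depth limited what FT could show. Total counts were 7940025 to 24337017 per HA library. A large share of these reads lay on Yam1, 1 of the loci that collect ribosomal RNA: 67.5% to 75.7% with growth factors, 40.0% to 57.5% with hydrogel CT and 87.8% to 93.1% with SCI only. Reads on protein-coding genes other than Lars2 were 282677 to 1523515, 2844757 to 5799194 and 202250 to 780264 per HA library in the same order, so hydrogel CT was the deepest group. The part of this difference in the treatment comparisons was not tested beyond a fit that left genes out. That fit left out Yam1, Lars2 and all genes named Gm, Rn or Mir with a number, a wider set than ribosomal RNA loci. Total counts were 19607 to 145365 per FT library of the hydrogel groups and 2241603 to 5432938 per FT library of SCI only. Members together held 1431 to 46749 reads per HA library and 12 to 2016 per FT library. One FT library stood apart, that of number 1732 with growth factors, with 79.6% of its reads on protein-coding genes other than Lars2 and 4551 genes detected. SCI only libraries carry numbers from 9596 to 9935 and hydrogel libraries numbers from 1645 to 1762, so in comparisons with SCI only the hydrogel and whatever goes with the number range cannot be told apart. The labels name no batch. Astrocyte markers marked the precipitation: 9 of 10 tested were higher in HA, with summed levels of 3910 to 7980 CPM in HA and 181 to 1830 CPM in FT. CPM is a count scaled to a fixed library total after edgeR's TMM normalization. Markers of oligodendrocyte progenitors were higher too, 5 of 6 tested, at 264 to 851 CPM in HA and 23.1 to 160 CPM in FT, as were 3 of 9 oligodendrocyte markers, at 917 to 2230 CPM in HA and 144 to 1260 CPM in FT. Neuron markers were lower in HA, 6 of 7 tested, at 42.6 to 270 CPM in HA and 343 to 1580 CPM in FT. Those of microglia and macrophages were lower too, 7 of 8, at 16.9 to 850 CPM in HA and 73.9 to 7890 CPM in FT. Of fibroblast and Schwann cell markers 1 of 2 tested, Col1a1, was lower. Only 1 of 7 endothelial and pericyte markers was listed in both fractions and none of 7 lymphocyte markers. In bulk RNA, fewer cells of a type and less RNA per cell cannot be told apart.

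The sequences shown are the 250 bases before the annotated start of the 3 members that differed between HA and FT whichever title number was left out, given because their levels set them apart from the other members. They are RefSeq's for GRCm38.p6, all on the minus strand, written 5′ to 3′ with 2 searched motifs in capitals, the GC box GGGCGG and the CCAAT box, on either strand. TATAAA and CACGTG were searched too, and these letters are in none of the 3 windows. No 2 of the motifs marked overlap. Over 32851 RefSeq windows of this length, 32.7% held GGGCGG, 33.8% CCAAT, 12.4% TATAAA and 6.02% CACGTG. The windows are Snx22 at chr9:66069732-66069981, Rab31 at chr17:65772753-65773002 and Rab3c at chr13:110280207-110280456. The window of Snx22, higher in HA, held 3 GC boxes and had 63.6% GC. That of Rab31, also higher in HA, held 1 GC box and 1 CCAAT box at 57.6% GC. That of Rab3c, lower in HA, held 1 of each at 47.6% GC, against a median of 52.4% over all windows. A match describes these letters and is not evidence of binding.
Snx22: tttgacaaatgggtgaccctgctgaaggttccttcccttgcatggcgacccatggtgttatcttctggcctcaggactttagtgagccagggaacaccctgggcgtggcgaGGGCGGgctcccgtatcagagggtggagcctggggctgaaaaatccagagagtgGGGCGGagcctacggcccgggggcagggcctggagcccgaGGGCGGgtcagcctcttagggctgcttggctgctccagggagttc
Rab31: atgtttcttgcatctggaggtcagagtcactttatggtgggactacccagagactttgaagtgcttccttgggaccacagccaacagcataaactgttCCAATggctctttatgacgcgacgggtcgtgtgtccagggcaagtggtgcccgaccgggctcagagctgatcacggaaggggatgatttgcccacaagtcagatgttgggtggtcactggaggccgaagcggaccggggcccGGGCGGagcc
Rab3c: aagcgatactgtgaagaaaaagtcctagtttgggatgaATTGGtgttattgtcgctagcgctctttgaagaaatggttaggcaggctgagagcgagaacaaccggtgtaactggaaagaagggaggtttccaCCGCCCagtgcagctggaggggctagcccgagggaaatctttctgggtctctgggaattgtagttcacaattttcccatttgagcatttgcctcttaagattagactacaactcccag

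Within HA, which members had the highest mean level per transcript length differed between treatments, on the HA scale. EdgeR called no member between these treatments. With growth factors, Rab4a, of fast endosomal recycling, had the highest mean at 36.5 ± 21.1 CPM per kb (SD, n = 3 libraries), followed by Rab29, which recruits the kinase LRRK2 to Golgi and lysosomes, at 34.5 ± 25.7. With hydrogel CT it was Rab2a, which acts between endoplasmic reticulum and Golgi, at 39.6 ± 6.46 CPM per kb (SD, n = 3), followed by Rab18, of lipid droplets and the endoplasmic reticulum, at 20.5 ± 1.09. With SCI only it was Rab31, of early endosomes and the trans-Golgi network, at 19.9 ± 6.17 CPM per kb (SD, n = 4), followed by Rab2a at 12.2 ± 4.62. Over the 10 HA libraries together, Rab2a averaged 24.5 ± 15.7 CPM per kb, Rab4a 17.3 ± 17.1, Rab29 15.5 ± 18.2, Rab31 15.3 ± 7.29 and Rab18 14.2 ± 5.84. The SDs exceed the steps between neighbours, so this order is not resolved. Each level rests on the transcripts listed for a gene, and how reads were assigned to transcripts is not given. The mean of Rab4a was 7.12 CPM per kb with hydrogel CT and 10.6 with SCI only, and that of Rab29 was 7.35 and 7.48, well under their growth factor values. Rab21, an endosomal Rab that binds integrins, averaged 10.2 ± 7.51 over all HA libraries.

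Among sorting nexins the order of the means also differed between treatments, and whether it depends on treatment was not tested. Snx1 had the highest mean with growth factors, 9.10 CPM per kb, ahead of Snx4 at 8.56 and Snx6 at 7.85. The mean of Snx4 rested on number 1732, with 846 reads against 36 and 25 in numbers 1685 and 1687. With hydrogel CT it was Snx6 at 9.42, and with SCI only Snx15 at 7.02, Snx1 at 5.75 and Snx22 at 5.26. Snx1 and Snx6 pair in the endosomal coat that retrieves the mannose 6-phosphate receptor. Their paralogues were lower in level over the 10 libraries, with 1.28 CPM per kb for Snx2 and 0.171 for Snx5, the second listed only as a processed transcript. At the low end stood Rab27b, of regulated secretion, at 0.0113 CPM per kb. Reads were found in all 10 HA libraries for 32 of the 63 members. In FT with SCI only, on the FT scale, Rab2a had the highest mean at 57.8 ± 11.7 CPM per kb (SD, n = 4), followed by Rab31 at 46.8 ± 17.0.

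**Figure D1:**
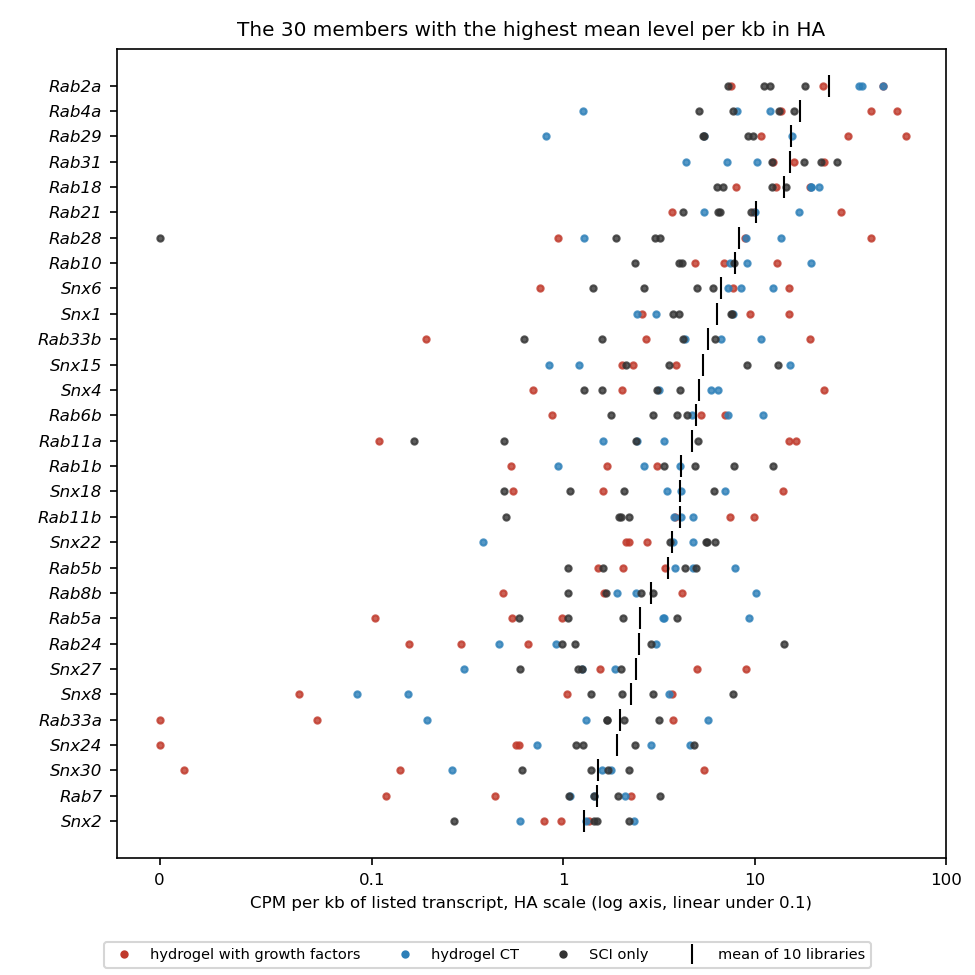
Level per kb of listed transcript in the HA libraries for the 30 members with the highest mean, on a log axis that is linear under 0.1, with a dot per library coloured by treatment and a bar at the mean of 10 libraries. Over the 3 treatments together Rab2a has the highest mean, 24.5 CPM per kb, and dots of different treatments lie apart for several members.

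Paralogues differed in level within HA, given here as means over the 10 libraries. Of the Rab5 genes, the GTPases that define early endosomes, Rab5b averaged 3.53 CPM per kb and Rab5a 2.53, against 0.488 for Rab5c. Rab4b was at 0.0768 CPM per kb, far under Rab4a, and 85.2% of its exonic bases are also in Gm21983. Of the Rab6 genes, which serve traffic within and from the Golgi, the brain-enriched Rab6b had 4.93 CPM per kb and Rab6a 0.289. Rab11a and Rab11b, of recycling endosomes, stood at 4.72 and 4.06 over all HA libraries, and at 2.47 and 4.23 with hydrogel CT. Of the exocytic Rab8 genes, Rab8b had the higher mean with growth factors (2.09 against 0.5 CPM per kb for Rab8a) and hydrogel CT (4.81 against 0.214), and Rab8a with SCI only (2.54 against 2.05 for Rab8b). Levels rest on the transcripts listed for a gene, and how reads were assigned to transcripts is not given. GENCODE annotates 1 transcript for Rab8b and 3 for Rab8a, 2 for Rab6b and 4 for Rab6a, and 2 for Rab5b and 4 for Rab5c. Rab11a has 9 and Rab11b 6. The part of transcript number in these contrasts was not tested. The authors' counting could also split reads of near-identical copies. Of the 31-base words of a transcript, other genes share 24.8% for the longer Rab6a transcript, 19.5% for Rab7, 18.2% for Snx2, 15.7% for Rab5b, 15.6% for Rab11b and 14.0% for Rab5a, so the levels of these genes and their contrasts with paralogues are uncertain.

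To ask which members the precipitation enriched, HA was set against FT over the 10 title numbers with both fractions. A call is an adjusted p under 0.05 in edgeR's quasi-likelihood test. Overlap between the libraries of the fractions is described for named members only and was not counted over all genes. Snx22, Rab31 and Snx1 were higher in HA and Rab3c was lower, 4 of the 32 members tested, which is 12.5%. Over all 3295 genes tested, 20.6% were called, 13.2% higher in HA and 7.37% lower, so the members' share is not above the background. The median log2 difference was 0.72 over the 32 members and 0.28 over all genes, and 24 of the 32 members lay above 0, 75.0%, against 60.1% of all genes. In the SCI only numbers alone, 20 of 35 members lay above 0, 57.1%, against 54.2% of all genes, with medians of 0.20 for the members and 0.12 for all genes. A further fit, still with TMM, left out Yam1, Lars2 and all genes named Gm, Rn or Mir with a number. It tested 2742 genes, with a median of 0.45 over all genes and 0.79 over the members. The 10 members listed in both fractions but with too few reads to be tested are given by values only. The 21 members not listed in FT could not enter this test. Rab29 is among them, with 2765 reads in HA, so its HA to FT difference is not known here. The edgeR interaction test called no member for a dependence of its HA to FT difference on treatment, 0 of 32 at a background of 0.0%. With so few FT reads in the hydrogel groups, it cannot show that the differences are equal between treatments. At an unadjusted p under 0.05 there was 1, Rab4a, named after its values were seen, with an adjusted p of 0.352 in edgeR. Over all 3295 genes there were 353.

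**Figure D2:**
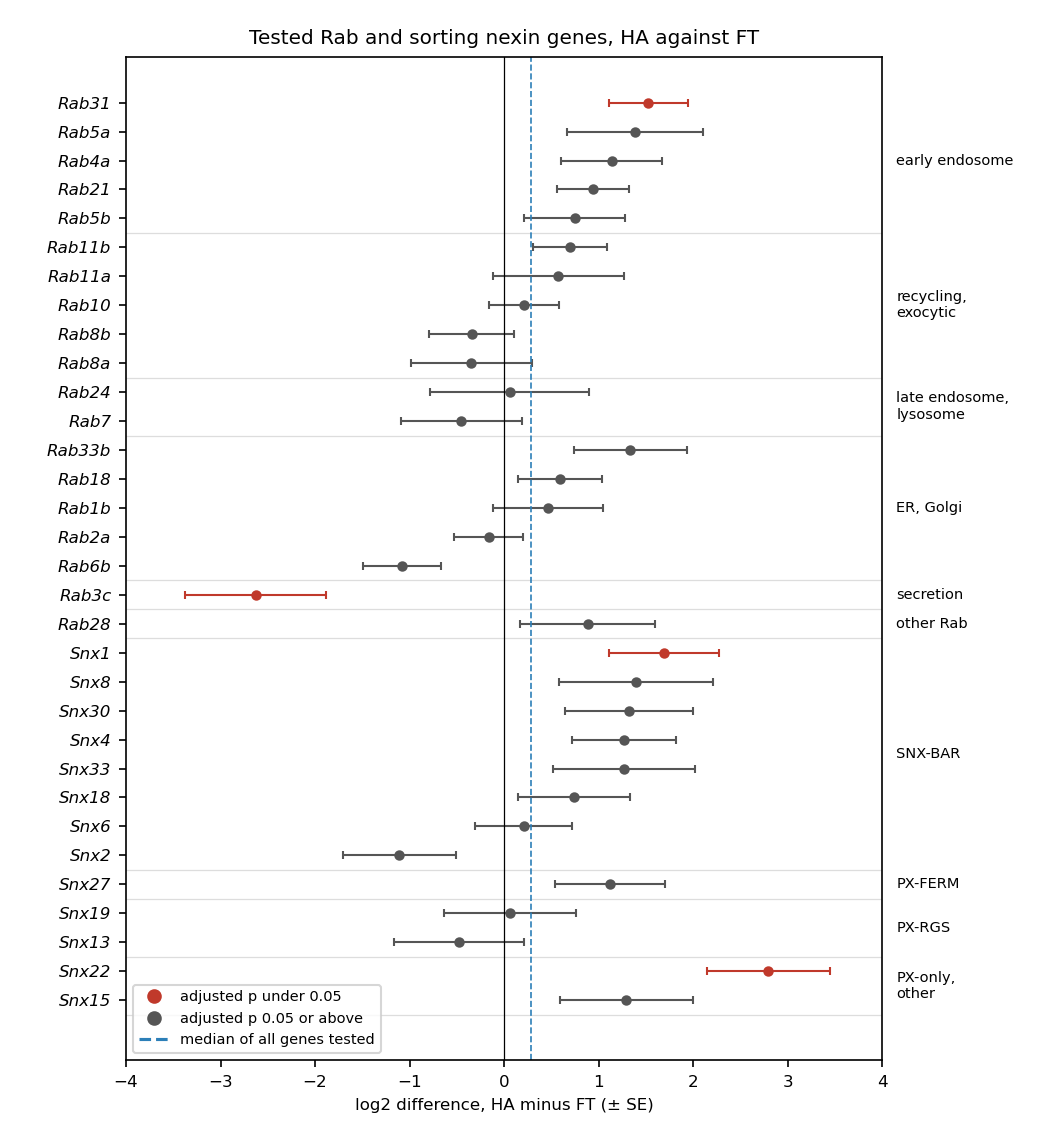
Log2 difference of HA minus FT with its standard error for the 32 members tested, grouped by role, with the 4 called members in red and the median of all genes, 0.28, as a dashed line. The 5 early endosome Rabs all lie to the right of 0, as do 60.1% of all genes tested, whereas Rab3c lies farthest to the left, at -2.63.

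Snx22, a sorting nexin known mainly by its PX domain, had the highest log2 difference of the members tested. Its gene lies on chromosome 9, 66065176 to 66069719 on the minus strand of GRCm38, and all its reads were assigned to 1 coding transcript. On the scale shared by both fractions, HA held 10.7, 10.3 and 8.86 CPM with growth factors, 20.3, 15.6 and 1.56 with hydrogel CT, and 27.5, 28.7, 16.8 and 27.8 with SCI only. FT held 0, 0 and 0.678 CPM with growth factors, 3.71, 0 and 0 with hydrogel CT, and 6.96, 8.05, 3.84 and 2.72 with SCI only. HA was above FT in 10 of 10 title numbers, and with SCI only the lowest HA library lay above the highest FT library. The log2 difference was 2.80 (SE 0.65, adjusted p = 0.00179), and 2.14 in the SCI only numbers alone (SE 0.59, adjusted p = 0.0222). Depth sets how much the hydrogel numbers add. Their 6 FT libraries held 2 reads of Snx22, against 1275 in HA, but 1 read there was worth 0.678 to 7.66 CPM, and a count of 0 allows 2.03 to 23.0 CPM (3 reads, counting error only). Of the exonic bases of Snx22, 32.4% also lie in exons of Ppib, the cyclophilin B gene on the other strand, and strand use in counting is not given. Ppib itself was listed with 0 to 142 reads per HA library. Markers of astrocytes and of oligodendrocyte progenitors, and some of oligodendrocytes, were higher in the same HA libraries. Their part in the difference of Snx22 was not tested.

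Rab31 lies on chromosome 17, 65651729 to 65772752 on the minus strand. HA held 122, 80.4 and 91.4 CPM with growth factors, 25.5, 58.0 and 40.5 with hydrogel CT, and 110, 86.1, 141 and 183 with SCI only. FT held 18.5, 0 and 13.6 CPM with growth factors, 3.71, 35.4 and 9.01 with hydrogel CT, and 106, 80.5, 68.1 and 32.6 with SCI only. Each title number was higher in HA, 10 of 10, but with SCI only the fractions overlapped. The log2 difference was 1.53 (SE 0.42, adjusted p = 0.00795). In the SCI only numbers alone it was 0.85 (SE 0.39, adjusted p = 0.186), so the call did not hold in the deeper FT libraries by themselves.

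Snx1, the SNX-BAR subunit that lies 18413 bases from Snx22 on the same strand of chromosome 9, was also higher in HA. HA held 48.0, 9.87 and 32.3 CPM with growth factors, 10.5, 26.0 and 8.21 with hydrogel CT, and 27.1, 31.8, 15.4 and 15.3 with SCI only. FT held 0, 0 and 4.07 CPM with growth factors, 0, 15.5 and 0 with hydrogel CT, and 11.9, 8.05, 13.4 and 10.9 with SCI only. HA was higher in 10 of 10 numbers, and with SCI only the fractions did not overlap. The 6 hydrogel FT libraries held 13 reads of Snx1. A count of 0 there allows 23.0 CPM in number 1687, 11.1 in 1724 and 13.5 in 1762 (3 reads). These lie above the HA values of 9.87, 10.5 and 8.21 CPM, so those numbers do not resolve the direction. The log2 difference was 1.69 (SE 0.58, adjusted p = 0.0352). The call was lost without number 1685 (adjusted p = 0.0795), 1732 (0.0528), 9596 (0.0616) or 9843 (0.0766), and in the SCI only numbers alone, where the log2 difference was 1.01 (SE 0.54, adjusted p = 0.272). Its partner Snx2 had a log2 difference of the other sign, -1.11 (SE 0.60, adjusted p = 0.194), with 4.60 ± 2.39 CPM in HA and 9.70 ± 7.27 in FT (SD, n = 10 each), and did not pass.

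Rab3c, a Rab of synaptic and secretory vesicles, was lower in HA. Its gene spans chromosome 13, 110054187 to 110280150 on the minus strand. HA held 4.46, 1.41 and 0 CPM with growth factors, 13.1, 0.340 and 3.11 with hydrogel CT, and 2.59, 1.16, 0.632 and 2.73 with SCI only. FT held 0, 15.3 and 49.5 CPM with growth factors, 3.71, 17.7 and 13.5 with hydrogel CT, and 17.6, 18.1, 7.67 and 13.6 with SCI only. FT was higher in 8 of 10 numbers, and with SCI only the fractions did not overlap. The log2 difference was -2.63 (SE 0.75, adjusted p = 0.0100), and -2.99 in the SCI only numbers alone (SE 0.79, adjusted p = 0.0171). Without number 1732, whose FT library stood apart, it was -1.95 (SE 0.70, adjusted p = 0.0427). Markers of neurons and of microglia and macrophages were lower in HA too, and their part was not tested.

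**Figure D3:**
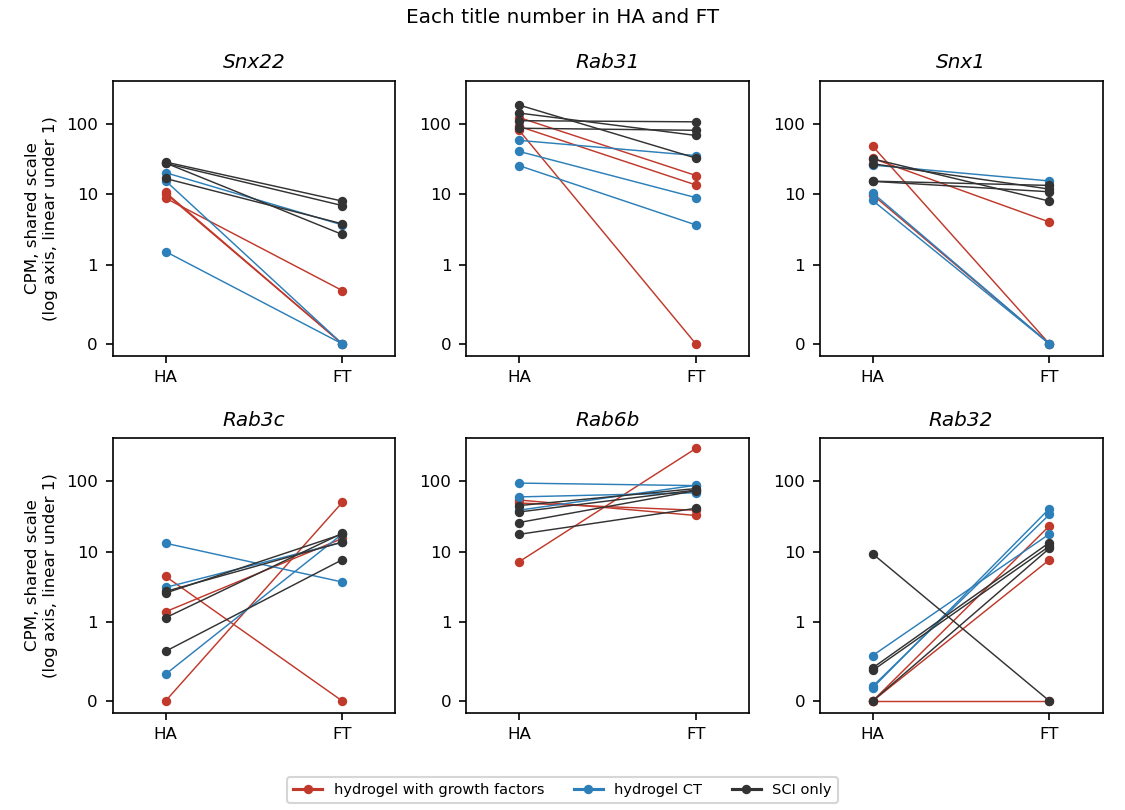
CPM of 6 members in HA (left) and FT (right), on a log axis that is linear under 1, with a line for each of the 10 title numbers coloured by treatment. Snx22, Rab31 and Snx1 are higher in HA in every number, and Rab3c and Rab32 are lower in HA in 8 of 10. The FT libraries of the hydrogel groups include several zeros at low depth, which leave the direction unresolved in some numbers.

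Members that did not pass are given by their values. Among early endosome Rabs, all 5 tested had positive log2 differences with a median of 1.14: beside Rab31 these were Rab5a at 1.38 (SE 0.72), Rab4a at 1.14 (SE 0.53), Rab21 at 0.94 (SE 0.38, adjusted p = 0.0763) and Rab5b at 0.75 (SE 0.54). Positive differences were also found in 60.1% of all genes and 75.0% of the members. Rab21 was higher in HA in 10 of 10 numbers and passed in 3 of the settings tried. Recycling and exocytic Rabs lay on both sides of 0, from Rab11b at 0.70 (SE 0.39) to Rab8a at -0.35 (SE 0.64), with Rab10, of regulated exocytosis, at 0.21 (SE 0.37). Rab7, the GTPase of late endosomes, was at -0.45 (SE 0.64), and Rab24, which is linked to autophagy, at 0.06 (SE 0.84). In Rab24, 66.4% of exonic bases also belong to Prelid1. Among Golgi and endoplasmic reticulum Rabs, Rab33b, which acts in Golgi traffic and autophagy, was at 1.34 (SE 0.60), Rab18 at 0.59 (SE 0.45), Rab1b at 0.46 (SE 0.58), Rab2a at -0.16 (SE 0.36) and Rab6b at -1.08 (SE 0.41, adjusted p = 0.0584). Rab6b averaged 42.3 ± 23.9 CPM in HA and 86.0 ± 72.8 in FT, and was lower in HA in 7 of 10 numbers. It passed with DESeq2 (adjusted p = 0.0201), but stood at -0.46 (adjusted p = 0.346) without number 1732.

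SNX-BAR proteins had positive differences in 7 of 8 tested with a median of 1.27, Snx2 being the exception, beside 60.1% of all genes and 75.0% of the members. Snx18 was at -0.35 in the SCI only numbers alone. Snx8 was at 1.39 (SE 0.81), Snx30 at 1.33 (SE 0.68) and its partner Snx4, which sorts the transferrin receptor and serves autophagy, at 1.27 (SE 0.55). Snx33 was at 1.27 (SE 0.75) and Snx18 at 0.74 (SE 0.59), both of a subgroup that bends membrane during endocytosis, and Snx6 at 0.21 (SE 0.52). None of these passed. Snx27, the PX-FERM protein that returns receptors from endosomes to the surface with retromer, was at 1.12 (SE 0.58), and Snx15, of endosomes, at 1.29 (SE 0.71). The PX-RGS proteins Snx13 and Snx19 were at -0.48 (SE 0.68) and 0.06 (SE 0.70).

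Among members too thinly read for the test, Rab32 stood out after its values were seen. It is a Rab of lysosome-related organelles and of mitochondria. HA held 0 CPM in all 3 growth factor libraries, 0.187, 0.578 and 0.167 with hydrogel CT, and 0.389, 0, 0.421 and 9.28 with SCI only. FT held 23.1, 7.66 and 0 CPM with growth factors, 33.4, 17.7 and 40.5 with hydrogel CT, and 11.9, 11.1, 13.4 and 0 with SCI only. FT was higher in 8 of 10 numbers, on 93 reads in FT and 52 in HA in all. Number 9935 went the other way, with 17 reads in HA and none in FT. Without the filter on low counts its log2 difference was -4.55 (SE 1.07, adjusted p = 0.00207). Markers of microglia and macrophages and of neurons were lower in HA too. In FT, Rab32 averaged 20.4 CPM in hydrogel libraries and 9.11 in SCI only libraries. The microglia and macrophage list stood there at 73.9 to 2260 and 2840 to 7890 CPM. The neuron list stood at 894 to 1580 and 343 to 735 CPM. The part of either list was not tested. Rab15, of recycling endosomes, averaged 1.51 ± 2.41 CPM in HA and 9.12 ± 9.93 in FT. It passed in the SCI only numbers alone, where it had enough reads to be tested, at -3.21 (SE 0.94, adjusted p = 0.0312).

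Among genes that act on Rabs and sorting nexins, some were higher in HA and others in FT. Of the Rab membrane cycle, 3 genes were tested: Gdi2, a GDP dissociation inhibitor, was lower in HA with a value of -1.91 (SE 0.37, adjusted p = 1.90e-04) and Rabac1, a Rab acceptor of the Golgi, higher at 1.68 (SE 0.58, adjusted p = 0.0349). None of 3 GEFs or 13 GAPs passed, with medians of -0.12 and -0.18, and 0 GEFs and 1 GAP had an unadjusted p under 0.05. DESeq2 called 0 GEFs and 1 GAP, Rabgap1l, beside 25.6% of all genes. Over all 3295 genes, 1067 had an unadjusted p under 0.05. Of 14 effectors, 1 was higher and 2 were lower: Rab11fip4, a Rab11 effector, at 1.54 (SE 0.42, adjusted p = 0.00692), Rufy3, of axonal organelle transport, at -1.10 (SE 0.38, adjusted p = 0.0373), and rabphilin (Rph3a), the Rab3 effector of synaptic vesicles, at -2.79 (SE 0.55, adjusted p = 2.61e-04). Of 11 retromer, Commander and WASH genes including the EHD tubule proteins, 2 were higher, the WASH subunit Fam21 at 1.32 (SE 0.46, adjusted p = 0.0382) and Ehd3 at 1.17 (SE 0.41, adjusted p = 0.0385), and 1 lower, Ehd4 at -2.81 (SE 0.70, adjusted p = 0.00341). Of 4 HOPS and CORVET genes, whose complexes tether late and early endosomes, the HOPS subunit Vps41 was higher at 1.43 (SE 0.46, adjusted p = 0.0231). None of 5 endosomal sorting receptors passed, with a median of 0.81, 1 at an unadjusted p under 0.05 and 0 called by DESeq2. The shares called in these lists, from 0.0% to 66.7%, stand on 3 to 14 genes each, beside 20.6% of all genes.

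Within HA, the treatments were compared to ask whether the depots changed astrocyte expression, over 49 members tested. No member was called by edgeR in any of the 3 comparisons. The background was also low, 0.0902% of 6654 genes for growth factors against hydrogel CT, 0.436% for growth factors against SCI only and 0.195% for hydrogel CT against SCI only. At an unadjusted p under 0.05 there were 9, 11 and 9 members in the same order, beside 886, 1396 and 843 of all genes. DESeq2 called 2, 5 and 2 members, at backgrounds of 4.4%, 10.7% and 3.67% of the same genes. The median log2 differences of the members were -0.50, 0.03 and 0.27, and those of all genes -0.14, 0.12 and 0.27. DESeq2's size factors in place of TMM moved the median of all genes for hydrogel CT against SCI only to 0.05 and for growth factors against hydrogel CT to 0.01. The comparisons share libraries, so their values are given side by side. Values that follow are on the HA scale, for members named by low p. How many of all genes lack overlap between groups was not counted, so a lack of overlap is only described.

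Rab11b, of recycling endosomes, had 45.6, 23.5 and 60.6 CPM with growth factors, 23.3, 25.3 and 29.0 with hydrogel CT, and 13.5, 12, 12.3 and 3.07 with SCI only. Both hydrogel groups lay above every SCI only library. The log2 difference from SCI only was 2.08 with growth factors (SE 0.63, adjusted p = 0.108) and 1.33 with hydrogel CT (SE 0.62, adjusted p = 0.377). DESeq2 called the first (adjusted p = 0.0173). Rab11a had 35.3, 0.255 and 38.5 CPM with growth factors, 5.68, 3.76 and 7.84 with hydrogel CT, and 11.9, 0.386, 1.15 and 5.58 with SCI only, and its groups overlapped.

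Rab8a, an exocytic Rab, had 2.38, 0.765 and 3.69 CPM with growth factors, 1.74, 0.439 and 0.745 with hydrogel CT, and 8.38, 6.94, 9.64 and 21.2 with SCI only. Again the groups with a depot did not overlap with SCI only. The log2 difference was -2.31 with growth factors (SE 1.00, adjusted p = 0.199) and -3.56 with hydrogel CT (SE 1.05, adjusted p = 0.183). DESeq2 called both (adjusted p = 0.0340 and 5.29e-04), and edgeR on the 2 groups alone called the second (0.0463). Its paralogue Rab8b had log2 differences of 0.03 (SE 0.82) with growth factors and 1.22 (SE 0.81) with hydrogel CT from SCI only.

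Rab2a had 48.4, 16.1 and 99.8 CPM with growth factors, 100, 75.2 and 77.7 with hydrogel CT, and 39.3, 25.7, 15.5 and 24 with SCI only. Hydrogel CT lay above SCI only without overlap, at 1.69 (SE 0.59, adjusted p = 0.260), while growth factors overlapped with both. Rab31 ran against this order, with 80.3, 43.6 and 55.8 CPM with growth factors, 15.3, 35.6 and 25 with hydrogel CT, and 63.4, 42.8, 77.0 and 93.5 with SCI only. It was at -1.45 with hydrogel CT against SCI only (SE 0.54, adjusted p = 0.279; DESeq2 0.0445) and at 1.24 with growth factors against hydrogel CT (SE 0.57, adjusted p = 0.356). Hydrogel CT overlapped with neither of the other groups. Growth factors against SCI only stood at -0.21 (SE 0.52).

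A few members had their highest HA levels with growth factors. Rab4a had 19.5, 57.4 and 78.5 CPM with growth factors, 1.8, 11.5 and 17.0 with hydrogel CT, and 19.0, 22.8, 10.9 and 7.25 with SCI only, a log2 difference of 2.36 from hydrogel CT (SE 0.82, adjusted p = 0.264). Rab29 had 13.2, 75.8 and 37.9 CPM with growth factors, 0.992, 19.3 and 6.71 with hydrogel CT, and 12, 6.56, 11.4 and 6.70 with SCI only, at 2.23 from hydrogel CT (SE 0.91) and 2.20 from SCI only (SE 0.83). Snx27 had 56.3, 9.69 and 31.2 CPM with growth factors, 1.89, 7.89 and 11.7 with hydrogel CT, and 3.74, 7.52, 12.6 and 7.81 with SCI only, at 2.18 (SE 0.86) and 2.04 (SE 0.78). For Rab29 the growth factor libraries lay above those of SCI only but overlapped with hydrogel CT. Rab28, of primary cilia, was at 3.07 (SE 1.2) from SCI only, with 66.8 CPM in number 1732 and 14.6 and 1.53 in the other growth factor libraries.

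Among named members with negative growth factor differences, Rab5a had 0.244, 1.28 and 2.32 CPM with growth factors, 7.84, 7.94 and 22.1 with hydrogel CT, and 4.86, 2.51, 9.29 and 1.39 with SCI only. The depot groups did not overlap, at -3.31 (SE 1.14, adjusted p = 0.258; DESeq2 0.0377). Snx33 had 0.122, 0 and 0.773 CPM with growth factors, 5.68, 2.63 and 0.347 with hydrogel CT, and 2.69, 9.84, 5.16 and 10.3 with SCI only, at -4.40 from SCI only (SE 1.40, adjusted p = 0.123; DESeq2 0.00417). Snx12, a PX-only protein, was at -3.99 from hydrogel CT (SE 1.56, adjusted p = 0.282; DESeq2 0.0468), on 0 to 5 reads in growth factor libraries and 89 to 291 in hydrogel CT libraries. Snx13 was at -3.10 (SE 1.25) and Snx24, another PX-only protein, at -2.74 (SE 1.26) from hydrogel CT. Rab24 was at -3.81 from SCI only (SE 1.45, adjusted p = 0.163; DESeq2 0.0182), with 16.7 CPM in number 9596 and 1.15 to 3.35 in the other SCI only libraries. Of its exonic bases, 66.4% also belong to Prelid1, which had 17 to 399 reads per HA library. Other members lay within these ranges, among them Rab1b at -1.99 (SE 0.93), Snx19 at -2.04 (SE 1.25), Snx3 at -2.07 (SE 1.36), Snx4 at 1.77 (SE 0.91) and Rab21 at 1.06 (SE 0.64) with growth factors against SCI only. Further values against hydrogel CT were Rab9 at -2.32 (SE 1.37), Rab13 at -2.08 (SE 1.59), Rab39b at -2.53 (SE 2.00), Rab5b at -1.23 (SE 0.82), Rab15 at 2.39 (SE 1.83) and Snx1 at 1.05 (SE 0.81). Rab15 had 0, 0 and 4.72 CPM with growth factors and stood at -5.92 without number 1732, and Snx4 against SCI only at -0.91 without it.

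Rab9b, a paralogue of the late endosome GTPase Rab9, had no read in any of the 4 SCI only libraries of HA. It had 1, 1 and 77 reads with growth factors and 84, 22 and 13 with hydrogel CT, or 0.0609, 0.255 and 6.61 CPM and 1.89, 0.459 and 0.167 CPM. Against the level that 3 reads over the SCI only group would give, 0.0972 CPM, the mean was 23.7-fold higher with growth factors and 8.64-fold higher with hydrogel CT. Without the highest library of each group these ratios are 1.62-fold and 3.22-fold, the first on 1 read per library. The 3 reads allow for counting error in SCI only and not for spread between libraries, so these ratios are not lower bounds. The fitted differences had adjusted p of 0.114 and 0.275, and DESeq2 called the first (0.0215). For hydrogel CT against SCI only, Rab10 was at 1.38 (SE 0.62), Rab9 at 2.70 (SE 1.27), Rab13 at 2.84 (SE 1.53), Snx5 at 2.97 (SE 1.38), Rab6b at 1.23 (SE 0.68), Rab18 at 1.03 (SE 0.63), Snx6 at 1.32 (SE 0.84), Rab3c at 1.8 (SE 1.48) and Rab43 at -4.07 (SE 1.93), of which 90.4% of exonic bases also belong to Gm45140. None of these passed.

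**Figure D4:**
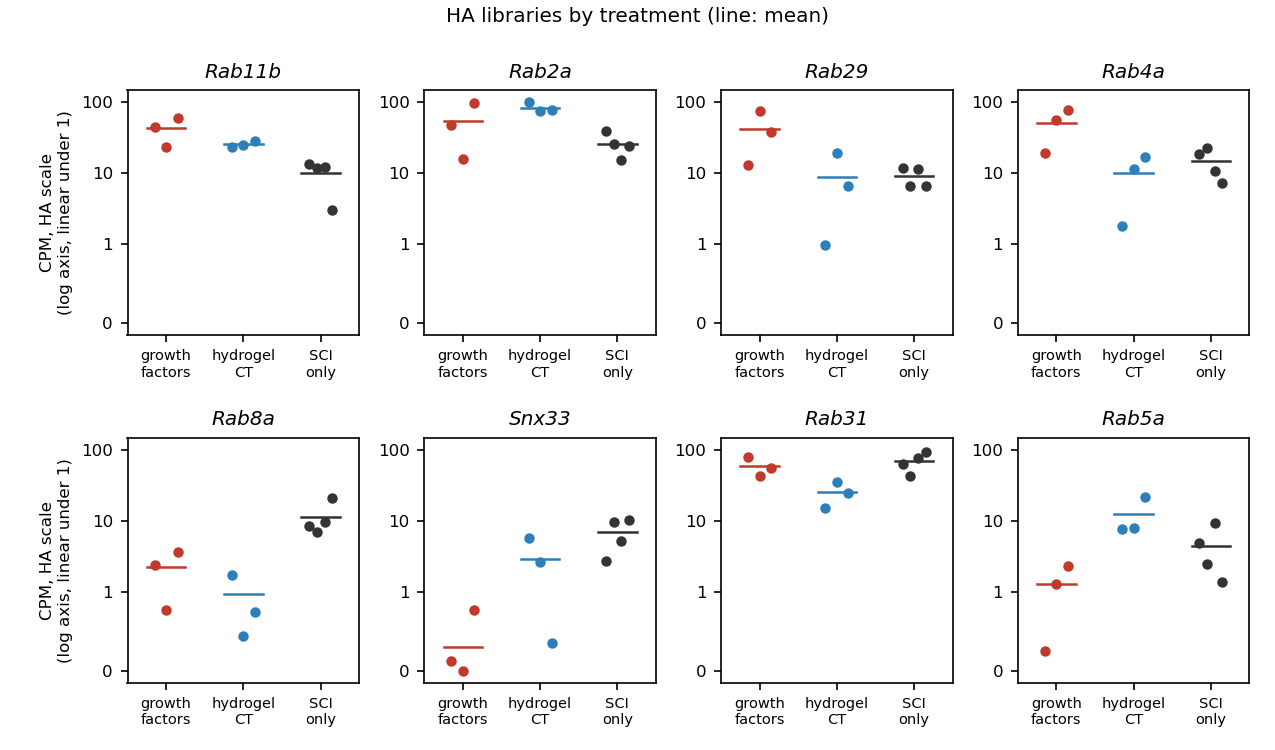
CPM of 8 members in HA libraries with growth factors, hydrogel CT and SCI only, on a log axis that is linear under 1, with a dot per library and a line at the group mean. Rab11b is higher and Rab8a lower in both depot groups than in every SCI only library, and Rab31 is lowest with hydrogel CT, yet edgeR called none of these differences. The members shown are among those with the lowest p, and how many of all genes separate in this way was not counted.

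The lists of partner genes gave no call within HA either: 0 of 15 GEFs, 21 GAPs, 22 effectors, 19 retromer, Commander and WASH genes, 4 HOPS and CORVET genes, 10 sorting receptors and 4 membrane cycle genes in each of the 3 comparisons. Of these 95 genes, 10, 21 and 19 had an unadjusted p under 0.05 for growth factors against hydrogel CT, growth factors against SCI only and hydrogel CT against SCI only, and DESeq2 called 6, 12 and 5. Of all 6654 genes tested, 886, 1396 and 843 had an unadjusted p under 0.05 in the same order. DESeq2 called 4.4%, 10.7% and 3.67% of them. Medians of the 7 lists ran from -1.22 to 0.95 for growth factors against hydrogel CT, from -0.97 to 0.27 for growth factors against SCI only and from -0.84 to 0.98 for hydrogel CT against SCI only. Cell markers differed in level between the HA groups, on the HA scale. Astrocyte markers summed to 3390 to 4370 CPM with growth factors, 2590 to 4920 with hydrogel CT and 2100 to 3000 with SCI only. The oligodendrocyte list stood at 624 to 1360, 571 to 1230 and 469 to 654 CPM in the same order. Neuron markers stood at 26.0 to 146, 26.3 to 161 and 24.4 to 44.4 CPM. The progenitor list had 302 to 452 CPM with growth factors, 163 to 256 with hydrogel CT and 339 to 456 with SCI only, so hydrogel CT lay below both other groups without overlap. The microglia and macrophage list had 49.7 to 76.1, 10.4 to 93.9 and 51.0 to 463 CPM in the same order. Their part in the member values was not tested.

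Within FT, 610 genes and 7 members had enough reads to be tested, Rab2a, Rab6b, Rab8b, Rab10, Rab11b, Rab21 and Snx6. EdgeR called none of them in any comparison, at backgrounds of 0.0% for growth factors against hydrogel CT, 3.77% for growth factors against SCI only and 3.11% for hydrogel CT against SCI only. DESeq2 also called 0 in each, beside 0, 79 and 57 of the 610 genes. At an unadjusted p under 0.05 there was 1, Snx6 with growth factors against hydrogel CT, at 2.36 (SE 0.86, adjusted p = 0.956), on 0 to 25 reads in growth factor libraries and 0 to 6 in hydrogel CT libraries. Against SCI only, log2 differences ran from -0.50 for Rab8b to 1.26 for Snx6 with growth factors, and from -1.10 for Snx6 to 0.90 for Rab2a with hydrogel CT. Rab2a had 0, 90.3, 36.2, 296 and 418 CPM on the FT scale with growth factors, 160, 236, 178 and 343 with hydrogel CT, and 117, 147, 137 and 90.6 with SCI only. In the hydrogel groups 1 read was worth 1.34 to 37.1 CPM, so a count of 0 there allows 4.03 to 111 CPM (3 reads).

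The authors' deposited tables hold rows for single transcripts, with the authors' own fit and adjustment. For growth factors against SCI only in HA, the authors' deposited table has 2 of 66 member rows under a false discovery rate of 0.05, Rab9b at a log2 fold change of 8.72 and Snx33 at -4.30, at a background of 3.97% of 10389 rows. For hydrogel CT against SCI only and against growth factors in HA, the authors' deposited table has 0 of 66, at backgrounds of 1.44% and 0.597%, and in FT it has 0 of 42 for hydrogel CT against growth factors, at 0.0%. In FT the authors' deposited table has 8 of 42 member rows lower with growth factors than with SCI only, at a background of 9.08% of 5001 rows, and 3 lower with hydrogel CT, at a background of 8.2%. Rab31 (-2.16 and -2.69), Rab1b (-2.99 and -3.90) and Snx8 (-3.47 and -6.33) are in both sets in the authors' deposited table, with growth factors first. In these FT libraries Rab31 had 5, 4, 0, 4 and 20 reads with growth factors, 0, 1, 16 and 2 with hydrogel CT, and 320, 80, 71 and 12 with SCI only. Snx8 had 0, 0, 0, 0 and 3 reads with growth factors, none in the 4 hydrogel CT libraries, and 40, 9, 20 and 6 with SCI only. These 3 genes did not pass the filter on low counts over all FT libraries. Rab31 passed it with the hydrogel CT and SCI only groups fitted alone, and edgeR then called it lower with hydrogel CT, at -2.43 (SE 0.66, adjusted p = 0.0143). With no filter, edgeR called Rab1b at -3.88 (SE 1.19, adjusted p = 0.0441) and Snx8 at -6.34 (SE 1.82, adjusted p = 0.0342) lower with hydrogel CT than with SCI only in FT, and Snx33 at -5.50 (SE 1.64, adjusted p = 0.0324) lower with growth factors. The microglia and macrophage list, which summed to 80.8 to 1930 CPM with growth factors, 160 to 3610 with hydrogel CT and 7120 to 17800 with SCI only in FT, differed between the same groups, and its part was not tested.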

How the data were processed

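Ribosome-bound (HA) and flow-through (FT) RNA of spinal cord lesions was sequenced as 23 libraries in 6 groups. Per the labels' protocols, cDNA was amplified with the NuGEN Ovation system and made into paired-end libraries. The submitters' processing notes name CASAVA 1.8.2 and edgeR as tools and mm10 as the build. The sources used here give no aligner, counter or strand setting. The authors deposited whole-number counts per transcript, all whole and with totals that differ between libraries, with log2 fold changes and p-values adjusted as false discovery rates. Rows under 10 (HA) or 11 (FT) reads in total are not listed, and 45 further per-sample columns were not used.

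Counts were summed per symbol. Rows with no symbol (0.00272% to 0.319% of a library) were left out. All 63 members were matched to GENCODE M21 by transcript. EdgeR 4.0.16 (R 4.3.3) fitted all genes with TMM scaling, filterByExpr (minimum count 10) and the two-sided quasi-likelihood test, adjusted by Benjamini-Hochberg over all genes tested at 0.05. HA was compared with FT over 10 title numbers and 4781 shared genes, with treatment as a covariate, and treatments were compared over the libraries of a fraction. CPM is given separately on the scale of the HA fit, of the FT fit and of the shared fit. The scripts were tested on simulated data. Both fractions of a title number derive from 1 tissue sample according to the design text, so the numbers pair them. Deviations of same-numbered libraries correlated at 0.0086 to 0.104. Alternatives were DESeq2 1.42.0, its size factors, other filters, the replicate block and libraries left out. Named were all members called and, up to 20 a comparison, those with the lowest p, with paralogues and the highest levels. The members and lists were chosen with earlier results of these data known.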

Additional observations from a re-analysis of the deposited data

Results flagged for a closer look

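Of 69 group and gene combinations with 4 or 5 libraries, 10 had a library far from the others. Chance gives about 1 in 20 for continuous values. That rate does not apply to sparse counts, where 1 library with a read among libraries at 0 always stands apart. Whether 10 is an excess was therefore not tested. In HA with SCI only, Rab11b stood at 3.07 CPM in number 9935 against 12 to 13.5 in the others, and Rab24 at 16.7 CPM in number 9596 against 1.15 to 3.35. The other 8 were in FT of the depot groups. Rab6b stood at 566 CPM in number 1732 with growth factors, on 421 reads, against 0 to 108, and Rab9b in the same library at 29.6 CPM, on 22 reads, against 0. The remaining 6 rest on 1 to 7 reads each: Rab5a at 40.4 CPM in number 1729 and Snx22 at 1.34 CPM in number 1732 with growth factors, and Snx1 at 21.1 CPM in number 1759, Snx22 at 5.91 CPM in number 1724, Snx27 at 22.9 CPM in number 1762 and Snx33 at 26.7 CPM in number 1683 with hydrogel CT.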

How the results depend on the processing

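For HA against FT, 4 of 32 members were called, 8 of 42 with no filter on low counts and 8 at 5 CPM or more. The last 2 settings add Rab15, Rab21, Rab32 and Snx4. Over all genes, 678 of 3295 were called, 916 of 4781 with no filter and 861 of 4486 at 5 CPM or more. Leaving out 1 title number gave 3 to 6, beside 550 to 713 of all genes. The replicate block, which pairs the fractions by title number, gave the same 4 members, as did summing only the transcript rows listed in both tables, a choice made after seeing the data. Without Yam1, Lars2 and all genes named Gm, Rn or Mir with a number, Rab3c did not pass the filter on low counts. No member was called for the fraction by treatment term, with or without the replicate block. Within HA, DESeq2 gave 2 calls for growth factors against hydrogel CT, 5 for growth factors against SCI only and 2 for hydrogel CT against SCI only. All genes gave 293, 715 and 244 of 6654 there. The 2 groups alone gave 1 for the last comparison, beside 113 of 6783 genes. Within FT, no filter gave 1 call for growth factors against SCI only and 2 for hydrogel CT against SCI only, where 5 CPM or more and the 2 groups alone gave 1 each. All genes gave 174 and 149 of 4898 with no filter. For hydrogel CT against SCI only they gave 138 of 3591 at 5 CPM or more and 209 of 1517 with the 2 groups alone. The causes were not tested. Leaving out 1 library gave 0 calls within either fraction.

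Of the log2 differences of named members, 1609 settings kept direction and side of the threshold, 19 newly passed, 6 no longer passed and 10 changed sign. For HA against FT, Snx18 was at -0.35 in the SCI only numbers alone. Leaving out 1 library gave ranges that cross 0 for the others. With growth factors against SCI only these were -0.91 to 2.31 for Snx4 in HA, and -0.0051 to 1.28 for Rab10 and -1.003 to 0.80 for Rab6b in FT. With growth factors against hydrogel CT they were -5.92 to 3.06 for Rab15 in HA, and in FT -0.66 to 1.19 for Rab6b, -0.039 to 0.66 for Rab8b, -1.09 to 0.043 for Rab2a and -0.81 to 0.85 for Rab10. Number 1732 set the low end for Snx4, Rab15 and Rab6b. Depth limits FT most, with 12 to 2016 reads on all members per library.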
